A study of Homo sapiens with 6 samples.

Results

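IL6, CSF2 and LTB encode 3 cytokines, and the account below follows their transcripts in CAL-62 cells, an established line from a human anaplastic thyroid carcinoma. To find the members, the version and suffix were removed from each listed transcript identifier, the identifier was matched to a GENCODE 29 gene symbol, and the transcripts of the 3 genes were taken singly and summed per gene. They hold 9 of the 31009 listed transcripts, 6 of IL6, 1 of CSF2 and 2 of LTB, and 3 of the 11359 listed genes. The genes were chosen by their low FPKM (a level scaled by transcript length and library depth) in FOXK2 cells against vector cells, so those levels are given as a description with no test.

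RNA sequencing was done on 3 libraries of CAL-62 cells overexpressing the forkhead transcription factor FOXK2 (oeFOXK2) and on 3 libraries of CAL-62 cells carrying a vector. All 6 came from the same line, grown with serum and antibiotics, and the labels name no drug or cytokine. The design text calls the samples of a group biological replicates without saying how they were obtained, so a p-value here measures the spread among these libraries, which may be technical. The sources used here do not say which promoter drove FOXK2 or whether the cells were 1 clone.

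Interleukin-6, encoded by IL6, binds its own receptor chain (IL6R) and then the shared chain gp130 (IL6ST), which activates JAK kinases and the transcription factor STAT3. Granulocyte-macrophage colony-stimulating factor, encoded by CSF2, acts on myeloid cells through the receptor chains CSF2RA and CSF2RB, JAK2 and STAT5. Lymphotoxin beta, encoded by LTB, is a membrane protein of the TNF superfamily that holds lymphotoxin alpha (LTA) at the cell surface and signals through LTBR to the non-canonical NF-kB pathway of NFKB2 and RELB. All 3 genes are known NF-kB targets, and the mRNAs of IL6 and CSF2 are textbook examples of short-lived messages with AU-rich elements.

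Because the 3 genes differed together, the 250 bases before each transcription start are shown, 5′ to 3′ on the strand of the gene, from RefSeq (build GRCh38.p14). The windows are chr7:22726950-22727199 (plus strand) for IL6, chr5:132073539-132073788 (plus strand) for CSF2 and chr6:31582426-31582675 (minus strand) for LTB, the first of 2 LTB windows in the table. Capitals mark every match on either strand to an NF-kB motif (GGG, any 5 bases, CC), TGANTCA (AP-1), TTGCNNAA (C/EBP) or TAAACA (forkhead), and overlapping matches run together.
IL6: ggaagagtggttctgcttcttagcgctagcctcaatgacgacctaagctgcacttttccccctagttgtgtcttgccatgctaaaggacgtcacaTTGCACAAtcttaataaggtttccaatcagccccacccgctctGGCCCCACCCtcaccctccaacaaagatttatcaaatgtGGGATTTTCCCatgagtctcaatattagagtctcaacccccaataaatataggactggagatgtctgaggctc
CSF2: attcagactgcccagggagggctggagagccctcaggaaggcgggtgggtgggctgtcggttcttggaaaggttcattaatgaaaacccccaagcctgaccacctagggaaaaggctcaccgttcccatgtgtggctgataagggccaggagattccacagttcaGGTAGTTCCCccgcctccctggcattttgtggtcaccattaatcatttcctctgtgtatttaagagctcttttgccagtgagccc
LTB: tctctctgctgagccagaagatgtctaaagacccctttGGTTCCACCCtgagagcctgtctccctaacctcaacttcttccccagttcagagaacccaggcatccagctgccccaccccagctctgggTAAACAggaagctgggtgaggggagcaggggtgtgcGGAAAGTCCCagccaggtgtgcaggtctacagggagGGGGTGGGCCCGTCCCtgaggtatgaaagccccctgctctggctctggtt

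The NF-kB motif was found in all 3 windows, and also in 54.4% of the 35116 RefSeq windows of this length. IL6 held 3 matches, of which GGGATTTTCC, 73 to 64 bases before the start, overlaps GGATTTTCCC on the other strand by all but 1 base. CSF2 held 1 match, GGTAGTTCCC at 85 to 76 bases before the start. LTB held 7 matches, of which 5 overlap one another between 50 and 35 bases before the start. The C/EBP letters were found in IL6 alone of the 3 genes, 155 to 148 bases before the start, and in 9.05% of all windows. The forkhead letters were found in LTB alone of the 3, 122 to 117 bases before the start, and in 11.0% of all windows. The AP-1 letters were in none of the 3 windows and in 6.57% of all. A match is a run of letters and not a measured binding site, and no match says only that the letters are not in this window.

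The mRNAs also differed in AU-rich elements, the ATTTA runs that decay factors such as the ZFP36 proteins recognise. For IL6 and CSF2, the 30 bases of the most abundant transcript with the most ATTTA runs are shown with those runs in capitals. They lie at positions 886 to 915 of 1182 in IL6 and 693 to 722 of 787 in CSF2, counted from the 5′ end of the GENCODE 29 transcript.
IL6: tatttttaATTTAttaatATTTAaatatgt
CSF2: aaaatATTTATTTATTTATTTATTTAagtt

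The CSF2 transcript held 8 ATTTA runs, overlaps counted, and 3 copies of the longer element TTATTTATT. Among 6644 annotated protein-coding transcripts within 10% of its length, 0.707% held TTATTTATT and 0.0301% held as many ATTTA runs. The most abundant IL6 transcript, ENST00000258743, held 6 ATTTA runs and no TTATTTATT, and 1.41% of 4048 transcripts of like length held as many. Neither listed LTB transcript held ATTTA, which 39.0% and 39.8% of transcripts of like length did.

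All 3 genes were low in each FOXK2 library and well expressed in each vector library. IL6 stood at 0.814, 0.583 and 0.000755 FPKM in FOXK2 libraries, against 26.7, 26.2 and 20.6 FPKM in vector libraries. The FOXK2 values lay under 1 FPKM and the vector values at 20.6 FPKM or more, so the groups did not overlap, and the lowest vector value was 25.4 times the highest FOXK2 value. Mean IL6 was 0.466 ± 0.419 FPKM in FOXK2 cells and 24.5 ± 3.37 FPKM in vector cells (SD, n = 3 each), a ratio of vector to FOXK2 means of 52.7 and a difference of -4.16 on the log2(FPKM + 1) scale, FOXK2 minus vector. In bulk RNA fewer cells of a type and less RNA per cell cannot be told apart.

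CSF2 stood at 0.472, 0.274 and 0.387 FPKM in FOXK2 libraries, against 45.4, 41.3 and 29.4 FPKM in vector libraries. The groups did not overlap, and vector replicate 3 was the lowest of its group for CSF2 as for IL6. Mean CSF2 was 0.378 ± 0.0995 FPKM in FOXK2 cells and 38.7 ± 8.32 FPKM in vector cells (SD, n = 3 each), a ratio of vector to FOXK2 means of 102 and a log2 difference of -4.83.

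LTB stood at 0.236, 0.126 and 0.631 FPKM in FOXK2 libraries, against 70.8, 30.4 and 39.7 FPKM in vector libraries. Vector replicate 1 was the high one, at 2.33 times replicate 2, and LTB had the widest spread of the 3 genes among vector libraries. Its coefficient of variation there was 45.0%, beside 21.5% for CSF2 and 13.7% for IL6. The groups still did not overlap, and the lowest vector value was 48.2 times the highest FOXK2 value. Mean LTB was 0.331 ± 0.265 FPKM in FOXK2 cells and 47.0 ± 21.1 FPKM in vector cells (SD, n = 3 each), a ratio of vector to FOXK2 means of 142 and a log2 difference of -5.10.

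**Figure D1:**
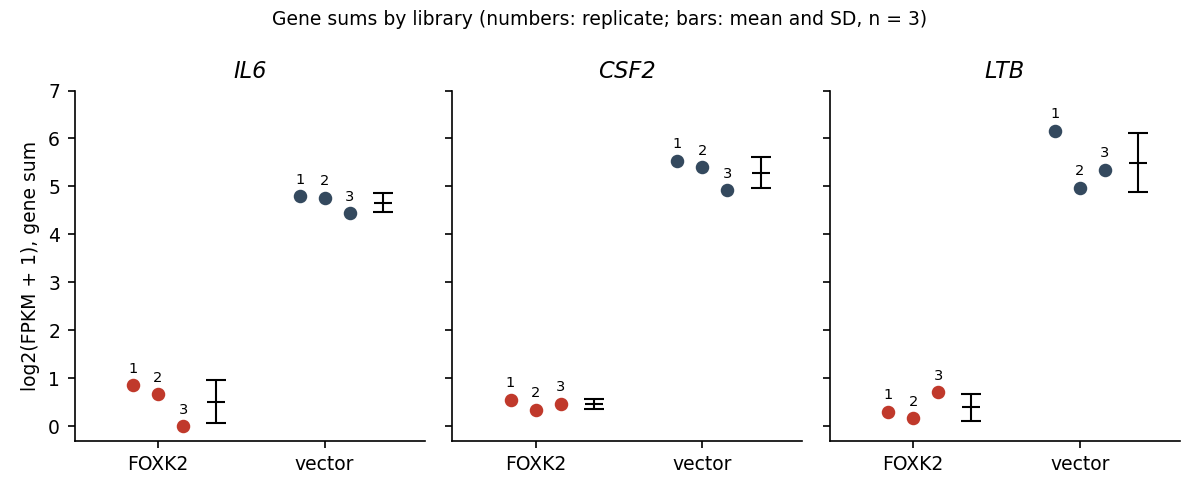
Levels of IL6, CSF2 and LTB in each library, as log2(FPKM + 1) of the gene sum, with FOXK2 libraries in red left of vector libraries in dark blue; numbers are replicates and bars give the mean and SD (n = 3). All FOXK2 points lie below 1 on this axis and all vector points above 4, with LTB of vector replicate 1 the highest.

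FPKM is scaled by length, so levels of different genes can be set in order within a library. In vector cells LTB was above CSF2 in replicates 1 and 3 and below it in replicate 2, so these genes had no constant order. IL6 was the lowest of the 3 in each vector library. Of the 11359 listed genes, 0.933% to 8.54% were below IL6 in FOXK2 libraries and 73.6% to 78.1% in vector libraries. The share below CSF2 was 2.70% to 4.79% in FOXK2 libraries and 79.8% to 86.5% in vector libraries. For LTB it was 1.72% to 6.29% in FOXK2 libraries and 80.5% to 91.6% in vector libraries. The number of reads is unknown, so no counting interval can be given for the values under 1 FPKM.

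Of the 10305 tested genes, those averaging 1 FPKM or more, 36.3% were called different between FOXK2 and vector cells, 17.6% higher and 18.7% lower (limma, Benjamini-Hochberg adjusted p under 0.05). In 52% of genes the libraries of the groups did not overlap, 26.4% with FOXK2 lower. The 3 cytokine genes are all of this last kind because of how they were chosen. From the lowest log2 difference upward, LTB ranked 2, CSF2 6 and IL6 12 of the 10305, and the median over all was 0.01. The 3741 calls became 2358, 4778 and 1950 without FOXK2 replicates 1, 2 and 3. They became 2576, 2271 and 2006 without vector replicates 1, 2 and 3.

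**Figure D2:**
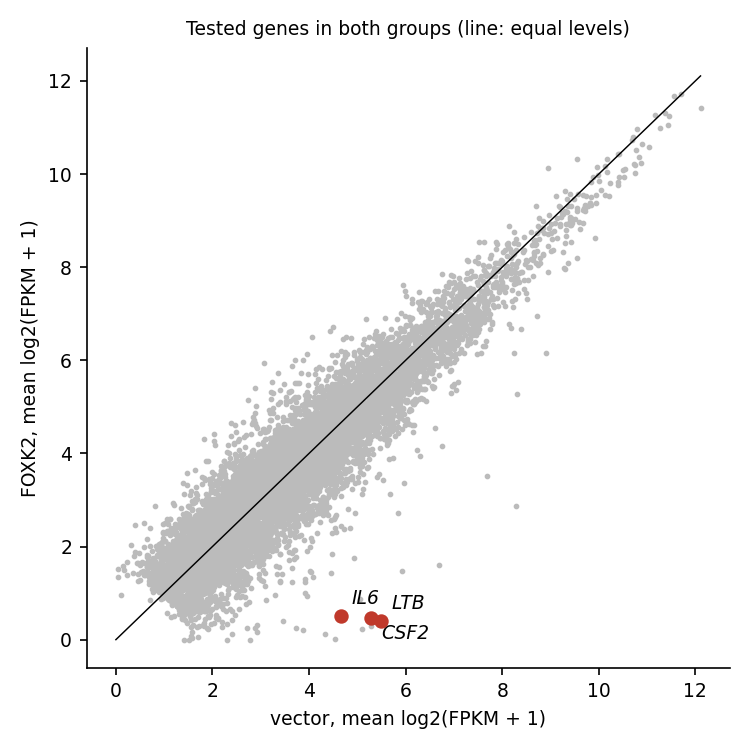
Mean log2(FPKM + 1) of each of the 10305 tested genes in FOXK2 libraries (vertical) and vector libraries (horizontal), with the line of equal levels. IL6, CSF2 and LTB, in red, lie far below the line, near the bottom of the FOXK2 axis.

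Most of the IL6 signal in vector cells came from a transcript with the full coding length. ENST00000258743, with 5 exons and a coding length of 636 bases, made up 80.4% ± 3.29 of the IL6 sum in vector libraries (SD, n = 3). Its values were 0, 0.583 and 0 FPKM in FOXK2 libraries, against 22.0, 21.6 and 15.8 FPKM in vector libraries. ENST00000404625, with 6 exons and the same coding length, had 0.814, 0 and 0.000755 FPKM in FOXK2 libraries, against 1.80, 2.32 and 2.76 FPKM in vector libraries. The IL6 signal of the FOXK2 libraries was thus assigned to ENST00000404625 in replicates 1 and 3 and to ENST00000258743 in replicate 2, apart from a trace in another transcript.

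The other 4 IL6 transcripts, with coding lengths from 366 to 594 bases, had vector means between 0.527 and 0.744 FPKM. In FOXK2 cells 3 of them were listed at 0 in every library, and ENST00000406575 was listed at 0.000168 FPKM in replicate 2. ENST00000401651 varied most among vector libraries, at 1.19, 0.351 and 0.690 FPKM. CSF2 has 1 annotated transcript, ENST00000296871 (4 exons, coding length 432 bases), so its gene sum is that transcript's value.

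The listed LTB transcripts differ in coding length. ENST00000446745, with 3 exons and 231 coding bases, made up 61.3% ± 7.03 of the LTB sum in vector libraries (SD, n = 3), and ENST00000429299, with 4 exons and 732 coding bases, the other 38.7%. ENST00000446745 had 0, 0.126 and 0 FPKM in FOXK2 libraries, against 38.0, 19.0 and 26.9 FPKM in vector libraries. ENST00000429299 had 0.236, 0 and 0.631 FPKM in FOXK2 libraries, against 32.8, 11.4 and 12.9 FPKM in vector libraries. Both were high in vector replicate 1, ENST00000429299 more so, at 46.3% of the LTB sum there and 37.4% and 32.4% in vector replicates 2 and 3. The groups overlapped for none of the 9 member transcripts, which follows from the choice of genes; of all 31009 listed transcripts 16.5% had every FOXK2 value below every vector value. How reads shared by transcripts were divided is not stated.

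**Figure D3:**
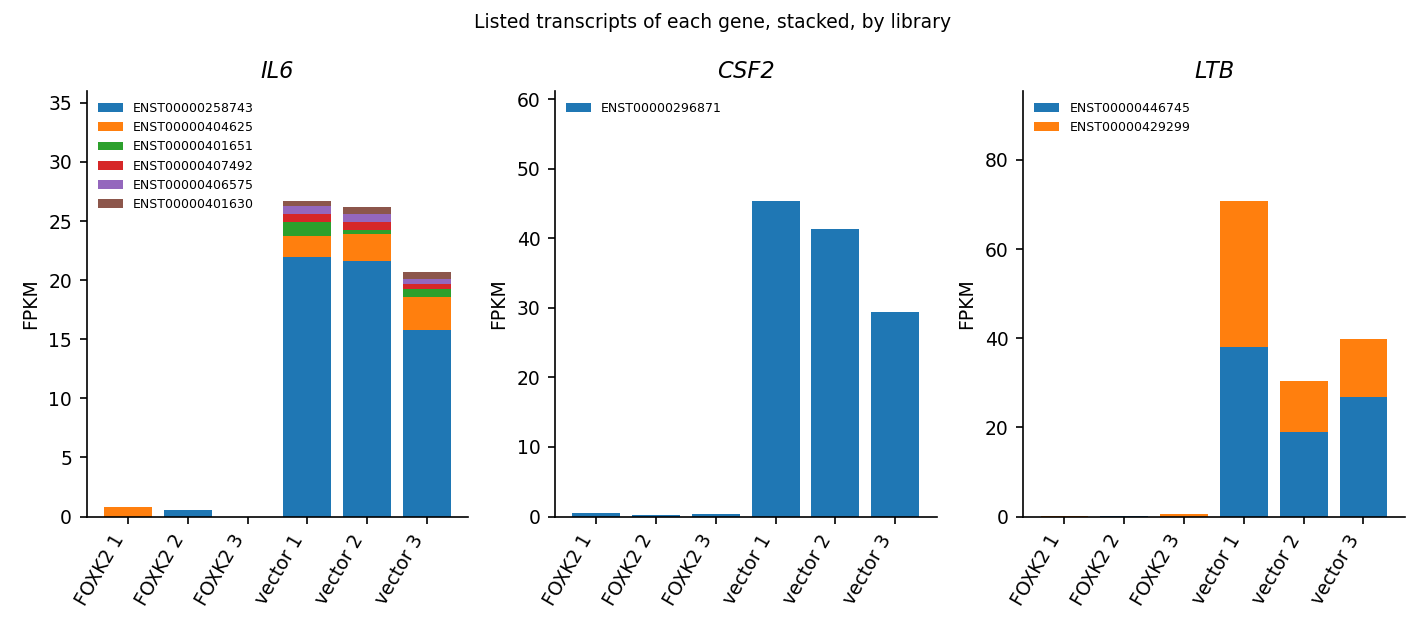
Listed transcripts of IL6, CSF2 and LTB, stacked as FPKM for each library, FOXK2 libraries left of vector libraries. The stacks of vector libraries reach 20.6 to 70.8 FPKM, and those of FOXK2 libraries stay under 1 FPKM.

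In GENCODE 29 IL6 overlaps STEAP1B and the antisense gene AC073072.1, both on the other strand. Neither was listed, and the sources used here do not say whether strand was used in assigning reads, so reads from them could be among those given to IL6.

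Across all tested genes the difference moved with the GC content of the transcripts. The GC content was 43.0% for IL6, 50.3% for CSF2 and 64.1% for LTB, weighted by level. In the groups of genes of like GC content, 10 groups of equal size in all, the median log2 difference was 0.35 around IL6, -0.05 around CSF2 and -0.53 around LTB. IL6 thus lay on the other side of 0 from genes of like GC content. In 10 such groups by transcript length the median was -0.25 around IL6 and -0.37 around CSF2 and LTB. IL6 thus lay on the same side of 0 as genes of like length. With the trend of each library on GC content and transcript length removed (the GC correction), the log2 difference was -4.30 for IL6, -4.55 for CSF2 and -4.36 for LTB.

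**Figure D4:**
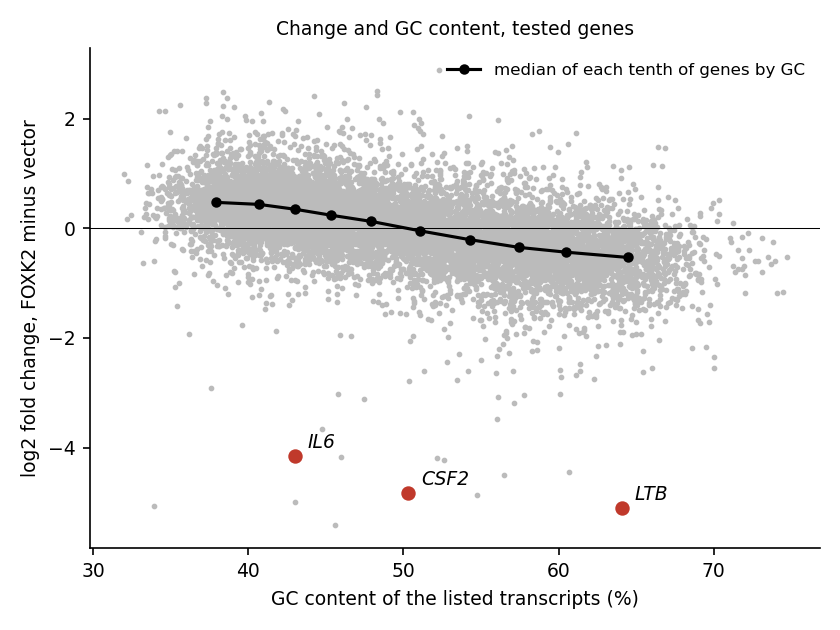
Log2 difference (FOXK2 minus vector) of each tested gene against the GC content of its listed transcripts in percent; black points are medians of 10 equal groups of genes by GC content. The medians run from 0.47 at the lowest GC content to -0.53 at the highest, and IL6, CSF2 and LTB, in red, lie far below them.

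FOXK2 mRNA, the check of the labels, was 32.4 ± 3.31 FPKM in FOXK2 cells and 15.9 ± 3.17 FPKM in vector cells (SD, n = 3 each), with no overlap of the groups (log2 difference 1.00 with SE 0.17, adjusted p = 0.00525). Of 8 thyroid follicular markers 3 were listed, PAX8, FOXE1 and HHEX, while TG, TSHR, NKX2-1 and SLC5A5 were among those not listed. PAX8 was 102 ± 16.7 FPKM in FOXK2 cells and 121 ± 32.3 FPKM in vector cells and was not called (-0.23, adjusted p = 0.410). HHEX was 49.5 ± 5.06 FPKM in FOXK2 cells and 20.0 ± 1.99 FPKM in vector cells (1.26, adjusted p = 0.000990), and FOXE1, too low to be tested, was 0.289 ± 0.0824 FPKM in FOXK2 cells and 0.838 ± 0.0157 FPKM in vector cells. Of 6 epithelial markers 5 were listed, summing to 2349 to 3533 FPKM in FOXK2 libraries and 3562 to 4174 FPKM in vector libraries. CDH1 was the epithelial marker not listed. The keratin genes KRT19 and KRT7 fell (-1.31, adjusted p = 0.000642 for KRT19; -0.73, adjusted p = 0.0193 for KRT7), while KRT8, KRT18 and EPCAM were not called (adjusted p = 0.987, 0.593 and 0.436). The mesenchymal markers VIM, FN1 and CDH2 summed to 732 to 786 FPKM in FOXK2 libraries and 744 to 793 FPKM in vector libraries, and none was called. Of 4 fibroblast markers COL1A1 alone was listed, at 18.2 ± 0.886 FPKM in FOXK2 cells and 28.1 ± 3.72 FPKM in vector cells (-0.59, adjusted p = 0.0159). Of 11 leukocyte markers 3 were listed, CD14, CD68 and LYZ, summing to 11.7 to 36.2 FPKM in FOXK2 libraries and 14.2 to 21.1 FPKM in vector libraries. The highest sum, in FOXK2 replicate 2, came from LYZ at 21.6 FPKM, which stood at 0.330 FPKM or less in the other libraries. PTPRC, which marks leukocytes in general, was not listed, nor was any of 3 endothelial markers. The calls of these markers were not followed through the GC correction or the leaving out of libraries. The part of these markers in the cytokine levels was not tested.

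Around the cytokines, 10 lists of related genes, holding none of the 3 themselves, were read in the same limma fit. They name 155 genes, of which 97 were listed and 84 tested. Of these 84, 15 (17.9%) rose and 26 (31.0%) fell in FOXK2 cells, beside 17.6% and 18.7% of all tested genes, and their median log2 difference was -0.08. The lists were chosen with earlier results of these data known, so these shares are a description and not independent support. Sizes given after "rose by" or "fell by" are on the log2(FPKM + 1) scale. With a pseudocount of 0.1 the log2 differences of genes near 0 were larger, at -5.74 for TNFAIP3, -3.61 for TNFSF13, -2.78 for TNFRSF14, -2.49 for BIRC3, -2.37 for FLT3LG and 0.83 for KITLG. After the GC correction 12 of the 84 list genes rose and 24 fell, beside 1637 and 1474 of all 10305 tested genes. With any 1 library left out 22 to 29 of the list genes fell, beside 1105 to 2408 of all tested genes. The number of list genes that rose was 15 without FOXK2 replicate 2, but 5 and 4 without FOXK2 replicates 1 and 3. It was 7, 6 and 5 without vector replicates 1, 2 and 3. Over all tested genes 2370 rose without FOXK2 replicate 2, and 1040 and 845 without FOXK2 replicates 1 and 3. Without vector replicates 1, 2 and 3, 1294, 1062 and 899 of all tested genes rose.

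**Figure D5:**
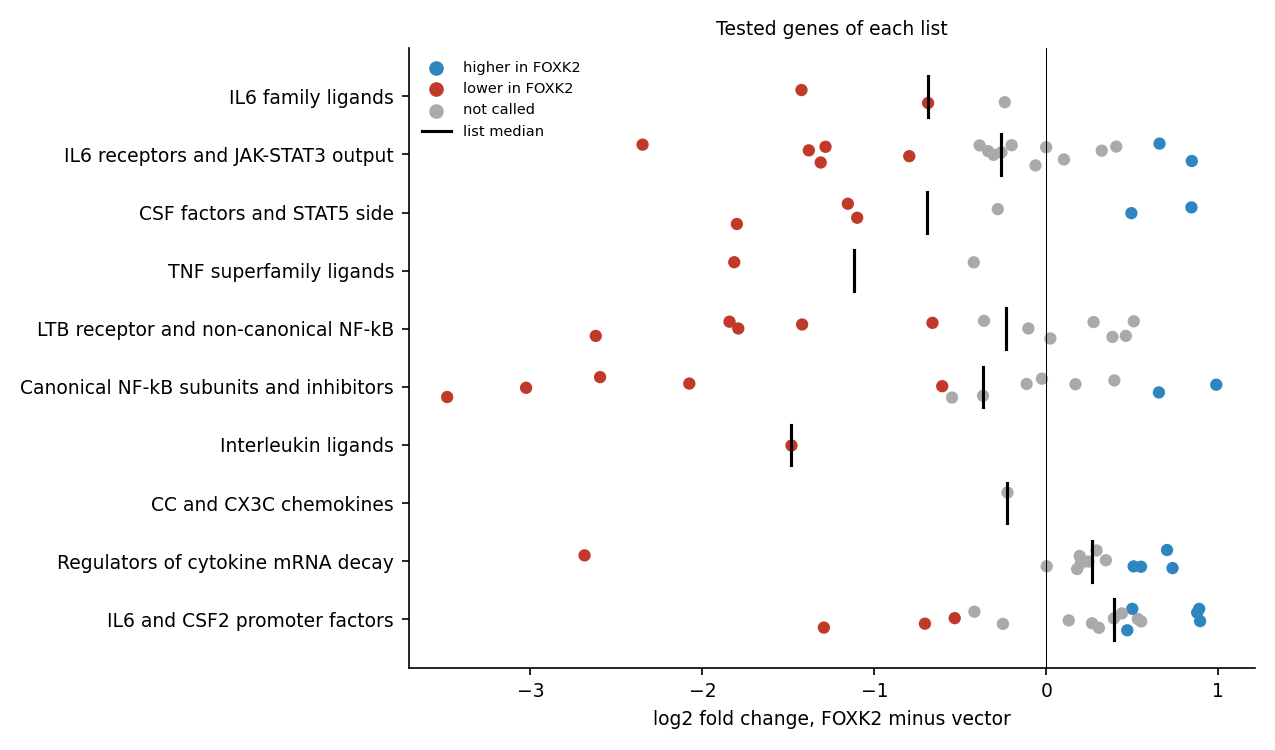
Log2 difference (FOXK2 minus vector) of the tested genes of 10 lists, 1 row per list, with genes called higher in blue, called lower in red and not called in grey, and black bars at the list medians. Values run from -3.48 to 0.99, both among the canonical NF-kB genes.

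Among the other ligands of the IL6 family, 3 of 9 were listed and tested, and 2 fell. LIF, which signals through gp130 and the LIF receptor, was 23.7, 27.0 and 21.3 FPKM in FOXK2 libraries, against 68.7, 71.5 and 58.1 FPKM in vector libraries (log2 difference -1.42 with SE 0.14, adjusted p = 0.000777). The groups did not overlap, yet LIF was still well above 1 FPKM in each FOXK2 library, where IL6 was not. CLCF1, another gp130 ligand, was 13.7 ± 0.451 FPKM in FOXK2 cells and 22.8 ± 2.38 FPKM in vector cells (-0.69, adjusted p = 0.00779), and was no longer called after the GC correction (adjusted p = 0.115). IL11 was 1.13 ± 0.656 FPKM in FOXK2 cells and 1.44 ± 0.265 FPKM in vector cells and was not called (-0.24, adjusted p = 0.456; 0.25 after the GC correction).

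Of the receptor chains, IL6R was not listed. LIFR and IL11RA, named after their values were seen, averaged under 1 FPKM and were not tested. LIFR was 1.48, 0.695 and 1.13 FPKM in FOXK2 libraries, against 0.302, 0.336 and 0.118 FPKM in vector libraries. IL11RA went the other way, at 0, 0.487 and 0.402 FPKM in FOXK2 libraries, against 1.40, 0.896 and 1.70 FPKM in vector libraries. IL6ST was 17.8, 9.68 and 7.91 FPKM in FOXK2 libraries, against 10.1, 10.0 and 5.27 FPKM in vector libraries. These ranges overlapped, and IL6ST was not called (log2 difference 0.41 with SE 0.33, adjusted p = 0.351; -0.14 after the GC correction). STAT3, named after its values were seen, was 15.5 ± 1.07 FPKM in FOXK2 cells and 15.5 ± 0.546 FPKM in vector cells and was not called (adjusted p = 0.996).

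Of 17 tested genes for IL6 receptors and JAK-STAT3 output, 5 fell and 2 rose, with a median log2 difference of -0.26. After the GC correction 0 rose and 4 fell, with a median of -0.06. CEBPD, a transcription factor gene known to be induced by STAT3, was 11.9, 15.4 and 16.5 FPKM in FOXK2 libraries, against 77.8, 70.8 and 85.1 FPKM in vector libraries (log2 difference -2.35 with SE 0.15, adjusted p = 0.000174). Its relative CEBPB, first described as a factor of the IL6 promoter, fell by 1.38 (adjusted p = 0.00168; -0.81 after the GC correction). SOCS3, the feedback inhibitor of gp130, was 2.49 ± 0.419 FPKM in FOXK2 cells and 7.70 ± 1.42 FPKM in vector cells (-1.31, adjusted p = 0.00242). The AP-1 gene JUNB fell by 1.28 (adjusted p = 0.00281; -0.70 after the GC correction).

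The other calls of that list were named after their values were seen. PIM3, a serine-threonine kinase gene, fell by 0.80 (adjusted p = 0.00972) and was no longer called after the GC correction (adjusted p = 0.0821). JAK2, the kinase of many cytokine receptors, rose by 0.85 (adjusted p = 0.0399) and was no longer called without FOXK2 replicate 1 or 3 or without vector replicate 1, 2 or 3 (adjusted p from 0.0515 to 0.120) or on its most abundant transcript alone (adjusted p = 0.0528) or after the GC correction (adjusted p = 0.102). PTPN11, which encodes the phosphatase SHP2, rose by 0.66 (adjusted p = 0.0407) and was no longer called without FOXK2 replicate 1 or 3 or without vector replicate 1, 2 or 3 (adjusted p from 0.0592 to 0.124) or on its most abundant transcript alone (adjusted p = 0.0760) or after the GC correction (adjusted p = 0.191).

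On the CSF2 side, the receptor chains CSF2RA and CSF2RB and the relatives CSF3, IL3 and IL5 were not listed. Of the 6 tested genes, 3 fell and 2 rose, with a median log2 difference of -0.69. After the GC correction 1 rose and 2 fell, with a median of -0.35. STAT5A, which relays CSF2 signals in myeloid cells, was 1.08, 1.74 and 1.38 FPKM in FOXK2 libraries, against 9.48, 9.30 and 4.29 FPKM in vector libraries (log2 difference -1.80 with SE 0.28, adjusted p = 0.00381). Vector replicate 3 was its low one, as for CSF2, and STAT5A was no longer called on its most abundant transcript alone (adjusted p = 0.122). CSF1, the macrophage colony-stimulating factor, was 5.17 ± 0.605 FPKM in FOXK2 cells and 13.1 ± 4.40 FPKM in vector cells (-1.15, adjusted p = 0.00874). FLT3LG, the ligand of the receptor FLT3, fell by 1.10 (adjusted p = 0.0146) and was no longer called without FOXK2 replicate 3 (adjusted p = 0.0522) or after the GC correction (adjusted p = 0.164). SOCS2, a feedback inhibitor of STAT5, rose by 0.84 (adjusted p = 0.0113) and was no longer called on its most abundant transcript alone (adjusted p = 0.104). KITLG, the ligand of the receptor KIT and named after its values were seen, rose by 0.49 (adjusted p = 0.0305) and was no longer called without FOXK2 replicate 1 or 3 or without vector replicate 1, 2 or 3 (adjusted p from 0.0624 to 0.0901) or after the GC correction (adjusted p = 0.998).

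LTA, the partner of LTB in its heterotrimer, was not listed, and neither was TNF. The receptor LTBR was 53.1, 87.3 and 90.6 FPKM in FOXK2 libraries, against 85.3, 97.5 and 108 FPKM in vector libraries. The ranges overlapped, with FOXK2 replicate 1 lowest, and LTBR was not called (log2 difference -0.36 with SE 0.21, adjusted p = 0.213; 0.17 after the GC correction). Of 17 other TNF superfamily ligands 3 were listed and 2 tested. TNFSF13, which encodes the B cell factor APRIL, was 0.346 ± 0.456 FPKM in FOXK2 cells and 3.63 ± 0.940 FPKM in vector cells (-1.81, adjusted p = 0.00303). TNFSF9, the ligand of 4-1BB, was not called (-0.42, adjusted p = 0.0629), and after the GC correction its difference was -0.0051 (adjusted p = 0.969). It was called without FOXK2 replicate 2 (-0.53, adjusted p = 0.0194), but not without any other 1 library (adjusted p from 0.115 to 0.173).

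All 12 genes of the list for the LTB receptor and non-canonical NF-kB were tested, and 5 fell and none rose, with a median log2 difference of -0.23. After the GC correction 0 rose and 5 fell, with a median of -0.15. RELB, the partner of the processed NFKB2 product, was 2.10, 2.86 and 2.89 FPKM in FOXK2 libraries, against 20.0, 23.3 and 20.2 FPKM in vector libraries (log2 difference -2.62 with SE 0.16, adjusted p = 0.000106). NFKB2 was 12.5, 15.7 and 13.6 FPKM in FOXK2 libraries, against 53.1, 53.2 and 51.1 FPKM in vector libraries (log2 difference -1.84 with SE 0.13, adjusted p = 0.000182). For both genes every vector library was more than 3 times any FOXK2 library. BIRC3, a ubiquitin ligase of the pathway, fell by 1.42 (adjusted p = 0.00188). TNFRSF14, a receptor of the LTB relative LIGHT, fell by 1.79 (adjusted p = 0.00318) and was no longer called on its most abundant transcript alone (adjusted p = 0.0635). TRAF3, an adaptor that restrains the pathway, named after its values were seen, fell by 0.66 (adjusted p = 0.0277) and was no longer called without FOXK2 replicate 1 or 3 or without vector replicate 1, 2 or 3 (adjusted p from 0.0631 to 0.0806) or on its most abundant transcript alone (adjusted p = 0.210). MAP3K14, the kinase NIK, also named afterwards, was 2.92 ± 1.20 FPKM in FOXK2 cells and 2.40 ± 1.72 FPKM in vector cells and was not called (adjusted p = 0.594).

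Of 13 tested canonical NF-kB subunits and inhibitors, 5 fell and 2 rose, with a median log2 difference of -0.37. After the GC correction 2 rose and 6 fell, with a median of -0.19, and not all were the same genes. TNFAIP3, which encodes the NF-kB inhibitor A20, was 0, 0.560 and 0.0900 FPKM in FOXK2 libraries, against 12.3, 13.6 and 11.2 FPKM in vector libraries (log2 difference -3.48 with SE 0.20, adjusted p = 0.000103; -2.08 on its most abundant transcript alone). NFKBIZ, a nuclear cofactor needed for Il6 induction in mouse macrophages, was 1.52, 1.48 and 2.07 FPKM in FOXK2 libraries, against 22.9, 20.1 and 19.5 FPKM in vector libraries (log2 difference -3.03 with SE 0.15, adjusted p = 4.88e-05). Neither gene's groups overlapped, and TNFAIP3 was under 1 FPKM in each FOXK2 library, as the cytokines were. NFKBIA, the inhibitor IkB-alpha, fell by 2.59 (adjusted p = 9.44e-05). TNIP1, a partner of A20, fell by 2.08 (adjusted p = 0.000112) and was no longer called on its most abundant transcript alone (adjusted p = 0.136). TNFAIP3, NFKBIZ and NFKBIA are textbook NF-kB targets.

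Others of that list were named after their values were seen. The subunit genes NFKB1 and RELA were not called (-0.37, adjusted p = 0.0597 for NFKB1 and -0.11, adjusted p = 0.566 for RELA). NFKB1 was called after the GC correction (-0.36, adjusted p = 0.0344). IKBKG (0.66, adjusted p = 0.0105) and CYLD (-0.47, adjusted p = 0.0117) were also called only after the GC correction. The calls of NFKB1, IKBKG and CYLD were not followed with a library left out or on the most abundant transcript. NFKBIE, another IkB gene, fell by 0.61 (adjusted p = 0.0410), had the opposite sign on its most abundant transcript alone (0.29, adjusted p = 0.758) and was no longer called without FOXK2 replicate 1 or 3 or without vector replicate 1 or 2 (adjusted p from 0.114 to 0.121) or after the GC correction (adjusted p = 0.350). TAB2 and MAP3K7 encode an adaptor and the kinase TAK1 upstream of NF-kB. TAB2 rose by 0.99 (adjusted p = 0.0241; 0.61 after the GC correction) and was no longer called without FOXK2 replicate 1 or 3 or without vector replicate 1 or 3 (adjusted p from 0.0608 to 0.0812) or on its most abundant transcript alone (adjusted p = 0.0536). MAP3K7 rose by 0.65 (adjusted p = 0.0239) and was no longer called without FOXK2 replicate 1 or 3 or without vector replicate 1, 2 or 3 (adjusted p from 0.0540 to 0.0790) or on its most abundant transcript alone (adjusted p = 0.375) or after the GC correction (adjusted p = 0.371).

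Few other cytokines were listed. Of 21 further interleukin ligands 4 were listed and 1 tested, IL32, which was 85.2, 125 and 102 FPKM in FOXK2 libraries, against 299.8, 277 and 292 FPKM in vector libraries (log2 difference -1.49 with SE 0.15, adjusted p = 0.000810; -0.92 after the GC correction). The other 3, named after their values were seen, had a mean under 1 FPKM and were not tested. IL1B was 0.165, 0.131 and 0.339 FPKM in FOXK2 libraries, against 1.77, 1.26 and 0.517 FPKM in vector libraries. IL23A, a subunit of interleukin-23, was 0, 0.359 and 0 FPKM in FOXK2 libraries, against 1.39, 1.19 and 1.52 FPKM in vector libraries. IL15 was 0.451, 0 and 0.380 FPKM in FOXK2 libraries, against 0.855, 0.979 and 0.937 FPKM in vector libraries. In each of these 3 genes the lowest vector value was above the highest FOXK2 value, as in 20.4% of the 1054 listed genes averaging under 1 FPKM. Of 12 CC and CX3C chemokines 2 were listed. CCL28 was not called (-0.23, adjusted p = 0.337; -0.46, adjusted p = 0.0459 after the GC correction). CCL20, below the minimum mean and also named afterwards, was 0.217, 0.316 and 0 FPKM in FOXK2 libraries, against 1.01, 2.31 and 1.47 FPKM in vector libraries. It too was listed through its vector values.

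Of 12 tested regulators of cytokine mRNA decay, 4 rose and 1 fell, with a median log2 difference of 0.27. After the GC correction 4 rose and 2 fell, with a median of 0.19, and not all were the same genes. KHSRP (0.73, adjusted p = 0.00270) and ZC3H12C (-0.54, adjusted p = 0.0224), named after their values were seen, were called only after the correction. Their calls were not followed with a library left out or on the most abundant transcript. ZC3H12A, which encodes Regnase-1, a nuclease that cleaves IL6 mRNA, was 1.16, 1.31 and 1.61 FPKM in FOXK2 libraries, against 11.0, 16.3 and 15.7 FPKM in vector libraries (log2 difference -2.69 with SE 0.19, adjusted p = 0.000182). HNRNPD, which encodes the AU-rich element binding protein AUF1, was 306, 254 and 285 FPKM in FOXK2 libraries, against 166, 179.6 and 171 FPKM in vector libraries (log2 difference 0.70 with SE 0.11, adjusted p = 0.00398). The groups overlapped for neither gene, and they moved in opposite directions. ZFP36L1 and ZFP36L2 encode relatives of the decay factor tristetraprolin. ZFP36L1 rose by 0.73 (adjusted p = 0.0172) and was no longer called without FOXK2 replicate 1 or 3 or without vector replicate 3 (adjusted p from 0.0515 to 0.0576). ZFP36L2 rose by 0.55 (adjusted p = 0.0200) and was no longer called without FOXK2 replicate 1 or 3 or without vector replicate 2 or 3 (adjusted p from 0.0526 to 0.0712). TIAL1, an AU-rich element binding protein gene named after its values were seen, rose by 0.51 (adjusted p = 0.0262) and was no longer called without FOXK2 replicate 1 or 3 or without vector replicate 1 or 2 (adjusted p from 0.0597 to 0.0781) or on its most abundant transcript alone (adjusted p = 0.184) or after the GC correction (adjusted p = 0.368). ZFP36, the gene of tristetraprolin itself and also named afterwards, was not called (0.20, adjusted p = 0.483).

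Of 17 tested genes of transcription factors known at the IL6 and CSF2 promoters, 5 rose and 3 fell, with a median log2 difference of 0.39. After the GC correction 5 rose and 1 fell, with a median of 0.08, and not all were the same genes. FOS (0.80, adjusted p = 0.0312) and EGR1 (0.49, adjusted p = 0.0286), named after their values were seen, were called only after the correction. ATF2 and CEBPG, called higher, and CEBPA, called lower, also named afterwards, were no longer called after it (adjusted p = 0.167, 0.634 and 0.843). The AP-1 gene JUN was 52.6 ± 1.84 FPKM in FOXK2 cells and 27.9 ± 0.684 FPKM in vector cells (log2 difference 0.89 with SE 0.11, adjusted p = 0.00157), and ETS2, of the ETS family, rose by 0.88 (adjusted p = 0.00401). FOSL2, another AP-1 gene, was 4.05 ± 1.04 FPKM in FOXK2 cells and 11.2 ± 0.796 FPKM in vector cells (-1.29, adjusted p = 0.00266). JUND, also of AP-1, fell by 0.71 (adjusted p = 0.0124) and was no longer called after the GC correction (adjusted p = 0.675). The AP-1 gene FOSL1, named after its values were seen, was 310 ± 55.2 FPKM in FOXK2 cells and 218 ± 24.9 FPKM in vector cells. It rose by 0.50 (adjusted p = 0.0393), and by 1.08 after the GC correction (adjusted p = 0.000373). The calls of FOSL1, FOS, EGR1, ATF2, CEBPG and CEBPA were not followed with a library left out or on the most abundant transcript. NFATC2, also named afterwards and too low to be tested, was 0.952 ± 0.350 FPKM in FOXK2 cells and 0.253 ± 0.0820 FPKM in vector cells.

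The genes beside IL6, CSF2 and LTB on their chromosomes were read as well, a choice made after the data had been seen. Of the 3 nearest protein-coding genes on each side, 18 in all, 9 were listed and 8 tested. Of these 8, 1 rose and 5 fell, beside 17.6% and 18.7% of all tested genes. CDCA7L and KLHL7, both beside IL6, were not called (0.34, adjusted p = 0.237 for CDCA7L and 0.53, adjusted p = 0.0960 for KLHL7). Beside IL6, TOMM7, of the mitochondrial import channel, fell by 0.78 (adjusted p = 0.00303), and FAM126A rose by 0.67 (adjusted p = 0.0184) and was no longer called without FOXK2 replicate 1 or 3 or without vector replicate 1, 2 or 3 (adjusted p from 0.0517 to 0.0683) or on its most abundant transcript alone (adjusted p = 0.0597) or after the GC correction (adjusted p = 0.457). Beside CSF2, P4HA2, a collagen prolyl hydroxylase gene, fell by 0.96 (adjusted p = 0.00389) and SLC22A4, a transporter gene, by 1.07 (adjusted p = 0.00330; -1.90 with a pseudocount of 0.1). PDLIM4, also beside CSF2, fell by 0.50 (adjusted p = 0.0377), had the opposite sign after the GC correction (0.12) and was no longer called without FOXK2 replicate 1, 2 or 3 or without vector replicate 1 or 3 (adjusted p from 0.0587 to 0.122) or on its most abundant transcript alone (adjusted p = 0.430). Beside LTB, NFKBIL1 was 16.2 ± 4.53 FPKM in FOXK2 cells and 36.8 ± 3.46 FPKM in vector cells (-1.16, adjusted p = 0.00558; -0.54 after the GC correction) and was no longer called on its most abundant transcript alone (adjusted p = 0.0981). Without the correction the neighbours' log2 differences ran from -1.16 to 0.67, while those of LTB, CSF2 and IL6 were -5.10, -4.83 and -4.16.

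The genes whose pattern was most like that of each cytokine were found by Pearson correlation of log2(FPKM + 1) over the 6 libraries. With groups this far apart the correlation mostly records the split between them, and 42, 92 and 57 genes exceeded 0.99 with IL6, CSF2 and LTB. The nearest genes were picked over these same libraries, so an order of replicates shared with a cytokine follows in part from that choice. Nearest to IL6 were CAMKK1, CXCL8, TPCN1, DCAF8 and C11orf71, with r from 0.996 to 0.998. CXCL8, a neutrophil chemokine, was 2.90, 3.39 and 0.651 FPKM in FOXK2 libraries, against 103, 109 and 93.4 FPKM in vector libraries, with replicate 3 lowest in both groups, as for IL6. CAMKK1, a kinase gene, was 0.827 ± 0.0755 FPKM in FOXK2 cells and 1.54 ± 0.0501 FPKM in vector cells, a log2 difference of -0.48, so a like pattern did not mean a like size.

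Nearest to CSF2 were PBXIP1, CXCL2, MX2, SDC4 and C3, with r from 0.9985 to 0.9996. CXCL2, another neutrophil chemokine, differed by -4.18 on the log2 scale and the complement gene C3 by -4.51, beside -4.83 for CSF2. C3 averaged 0.0152 FPKM in FOXK2 cells, and with a pseudocount of 0.1 its difference was -7.59, beyond the -6.34 of CSF2. Nearest to LTB were CHST2, MFSD3, PGAP2, SOD2 and MIEN1, with r from 0.998 to 0.999. SOD2, the mitochondrial superoxide dismutase, was 12.8, 13.2 and 13.3 FPKM in FOXK2 libraries, against 39.8, 30.8 and 33.0 FPKM in vector libraries, with vector replicate 1 highest, as for LTB. Between the cytokines r was 0.992 for IL6 and CSF2, 0.990 for CSF2 and LTB and 0.975 for IL6 and LTB, given as descriptions over 6 libraries.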

How the data were processed

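Per the labels' protocols, a stranded kit with random priming was applied to total RNA. Per the submitters' processing notes, cutadapt, HISAT2 2.1.0 and StringTie were used with hg19, and their settings are not stated. The authors deposited a table of values per transcript, taken as FPKM because StringTie is named and the header gives no unit. No listed transcript had a mean below 0.500 FPKM in both groups, so lower transcripts are missing from the gene sums. Of the transcripts, 30893 matched GENCODE 29 and 116 (0.211% of the signal) did not, and 5455 held a 0. Summed FPKM was 335151 to 363133 in FOXK2 and 370457 to 395782 in vector libraries. Few low values were whole multiples of a unit, so depth is unknown.

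Gene sums were tested as log2(FPKM + 1) with limma 3.58.1 in R 4.3.3 (intensity trend, two-sided, Benjamini-Hochberg over all tested genes), on genes averaging 1 FPKM or more, and the script was tested on simulated data. Alternatives were other pseudocounts, filters, scalings, a GC and length correction, the most abundant transcript per gene, the replicate block and leaving out each library. Genes named are the cytokines, FOXK2, their receptors and partners, up to 4 genes per list by smallest p and the 5 most correlated with each cytokine; others are marked. The members and lists were chosen with earlier results of these data known. The GENCODE release is of another build than hg19 and gave names, structures, GC content, overlaps and neighbours, with no coordinates carried over.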

Additional observations from a re-analysis of the deposited data

How the results depend on the processing

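Over 17 alternatives the log2 difference stayed below 0 for each cytokine, at -5.94 to -3.90 for IL6, -6.34 to -4.55 for CSF2 and -6.86 to -4.36 for LTB. For IL6, CSF2 and LTB it was -5.94, -6.34 and -6.86 with a pseudocount of 0.1 and -4.80, -5.46 and -5.79 with 0.5, since the FOXK2 values lie below the pseudocount of 1. For LTB it was -4.36 with the GC correction and -4.36 with the replicate block added. With 1 library left out the ranges were -4.33 to -3.90, -5.01 to -4.70 and -5.36 to -4.77.

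Genes called numbered 3741 (1812 higher and 1929 lower). They were 2143 (960 higher and 1183 lower) when each gene was read from its most abundant transcript, 2124 (1140 higher and 984 lower) with the GC correction and replicate block, 1040 (458 higher and 582 lower) with a log2 difference of at least 1 in size, and 3111 (1637 higher and 1474 lower) with the GC correction alone. With 1 library left out they were 1950 to 4778 (845 to 2370 higher and 1105 to 2408 lower). List genes that rose were 5 on the most abundant transcript and 9 with GC correction and block, against 15, and 4 to 15 with 1 library left out (22 to 29 fell).

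Of 65 named genes followed through the alternatives, 35 kept their direction and side of the threshold in all. The sign turned, with no call, for STAT3 (0.13) and NFKBIE (0.29) on the most abundant transcript, and for IL6ST (-0.14; -0.14 blocked), LTBR (0.17; 0.17), IL11 (0.25; 0.25) and PDLIM4 (0.12; 0.12) with the GC correction. With 1 library left out STAT3 ran from -0.054 to 0.032 and IL11 from -0.46 to 0.0056, with no call; STAT3 was 0.032, 0.019 and 0.026 without FOXK2 replicates 1 and 3 and vector replicate 2, and IL11 0.00564 without FOXK2 replicate 3. The cause of these shifts was not tested.

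The replicate numbers were not taken to pair the libraries: the deviations of same-numbered FOXK2 and vector libraries correlated at 0.13, -0.17 and -0.06. With the replicate block 2982 genes were called (1415 higher and 1567 lower), and 11 list genes rose and 24 fell. Values under 1 FPKM have no error here beyond the spread of 3 libraries, because the depth is unknown.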
